A study of Homo sapiens with 12 samples.

Results

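The histone genes of LN229, an established human glioblastoma cell line, were followed in 12 RNA sequencing libraries, 4 from each of 3 media. Cells at 80% confluence were kept for 24 hours in RPMI with 10% dialyzed FBS that held 10 mM glucose, 1 mM glucose plus 5 mM acetate, or 1 mM glucose alone. These are called the 10 mM glucose, acetate and 1 mM glucose libraries, and libraries are listed in the order of their replicate numbers. All 12 come from 1 line, which carries no edit in the labels, and nothing in the labels says that replicates were grown apart, so p-values here reflect sample-to-sample spread that could be purely technical. Of 22257 genes in the count files, 90 are histone genes by symbol. A symbol that starts HIST1H, HIST2H, HIST3H or HIST4H marked 72 genes as replication-dependent, and a symbol that starts H2AF, H1F or H3F3 marked 18 as variant or replacement histones. The members include 86 coding genes and 4 noncoding ones, namely the H3.3 pseudogene H3F3AP4, the antisense RNA H1FX-AS1, and the pseudogenes HIST2H2BA and HIST2H2BC. On human chromosome 6 lie 55 of the members, and chromosome 1 holds 16 of the replication-dependent ones.

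Histones H2A, H2B, H3 and H4 form the protein core on which DNA is wound, and linker histones of the H1 family bind where DNA enters and leaves it. Replication-dependent histone genes sit in clusters, have no introns and are transcribed in S phase, when new DNA has to be packed. Their mature mRNA usually has no poly(A) tail and ends after a short stem-loop, which the stem-loop binding protein SLBP holds during processing, export and translation. Variant histones such as H3.3, H2A.Z, macroH2A and H1.0 are made throughout the cell cycle from ordinary polyadenylated mRNA and replace the canonical protein at promoters, at damaged DNA or in cells that have stopped dividing. Some replication-dependent genes also give a longer polyadenylated mRNA, above all outside S phase. The sources used here do not say whether poly(A) RNA was selected, and the share of histone mRNA that the libraries could capture was not tested.

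The stem-loop typical of replication-dependent histone mRNA was searched in the transcripts of GENCODE v29 (GRCh38). The letters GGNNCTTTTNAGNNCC were found on the sense strand in 31 of the 72 replication-dependent transcripts. Of the other 41, 34 transcripts hold only coding sequence in that annotation, so the window after the stop codon was not searched there. The remaining 7 hold untranslated sequence as well and had no match. Among 16 variant transcripts the same letters occur in 1, that of H2AFX. The following sites are shown because they belong to the best counted members whose transcript used here holds the letters, with the matched letters in capitals.
HIST2H2BE: caaaGGCTCTTTTCAGAGCCaccca
HIST2H2BF: caaaGGCTCTTTTCAGAGCCacttc
HIST1H2AC: caaaGGCTCTTTTCAGAGCCcccct
HIST1H2BH: caaaGGCTCTTTTCAGAGCCactta
HIST3H2A: taaaGGCTCTTTTCAGAGCCaccta
HIST1H4H: caaaGGCCCTTTTCAGGGCCgccca
H2AFX: caaaGGCCCTTTTAAGGGCCaccac
The first 5 share their 16 matched letters and differ in the flanks. In the HIST2H2BE transcript the match starts at base 450 of 2194, in HIST2H2BF at base 460 of 1954, in HIST1H2AC at base 525 of 1654, and in HIST1H2BH at base 405 of 2060. Those 4 annotated transcripts therefore run on far past the stem-loop, while the HIST1H4H match starts at base 364 of 397. The H2AFX match starts at base 555 of 1614.

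Promoter windows from 250 bases before to 50 bases after the start were taken from RefSeq (GRCh38.p14) for 79 members. The counts were made on hg19, and no position was carried between the builds. Each motif was searched on both strands in these windows and in all 27305 promoters of the same table. The octamer ATTTGCAT, known in H2B promoters, was in 14 of 18 H2B and 11 of 16 H2A windows, against 1.83% of all promoters. None of 6 H1, 12 H3 or 13 H4 windows held it, and 1 of 14 coding variant windows did, that of H3F3B. CCAAT was in all 6 H1, 16 H2A, 18 H2B and 12 H3 windows, in 3 of 13 H4 windows and in 11 of 14 variant windows, against 35.4% of all promoters. TATAAA was in 3 H1, 12 H2A, 12 H2B, 9 H3, 7 H4 and 4 variant windows, against 12.3% of all. A match is a description and no sign that a factor binds. The 100 bases before the start are printed for members whose levels are described in detail, with matches to these 3 motifs on either strand in capitals.
HIST1H2BK (chr6:27146856-27146955, minus strand): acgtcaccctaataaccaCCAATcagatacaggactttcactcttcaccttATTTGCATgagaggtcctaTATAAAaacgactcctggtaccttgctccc
HIST2H2BE (chr1:149886683-149886782, minus strand): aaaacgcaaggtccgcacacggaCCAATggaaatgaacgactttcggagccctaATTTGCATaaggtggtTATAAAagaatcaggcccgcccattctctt
HIST2H2BF (chr1:149812371-149812470, minus strand): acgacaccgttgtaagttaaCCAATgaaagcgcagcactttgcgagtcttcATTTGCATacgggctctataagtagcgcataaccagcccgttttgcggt
HIST1H2AC (chr6:26124072-26124171, plus strand): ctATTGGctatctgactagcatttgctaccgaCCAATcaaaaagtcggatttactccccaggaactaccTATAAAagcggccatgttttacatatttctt
H3F3B (chr17:75779780-75779879, minus strand): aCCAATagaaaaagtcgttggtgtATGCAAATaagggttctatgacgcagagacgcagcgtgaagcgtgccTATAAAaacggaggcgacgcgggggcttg
H2AFX (chr11:119095466-119095565, minus strand): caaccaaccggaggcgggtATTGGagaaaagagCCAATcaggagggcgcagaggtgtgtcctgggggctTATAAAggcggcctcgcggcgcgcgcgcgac
In these windows the octamer lies 49 bases before the start in HIST1H2BK and HIST2H2BF and 46 in HIST2H2BE, between a CCAAT upstream of it and, in HIST1H2BK and HIST2H2BE, a TATAAA 30 bases before the start. HIST1H2AC and H2AFX have CCAAT and TATAAA and no octamer in the printed stretch, and H3F3B has the octamer on the other strand, 76 bases before the start.

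Libraries held between 24.4 M and 27.2 M counts each (M, mega). CPM below means counts per M counts after TMM scaling, which balances libraries on the bulk of their genes. As a check of the line, all 7 glial markers examined were among the 14416 genes tested. Of 10 markers of blood, endothelial, epithelial and neuronal cells, 3 were (CD68, VWF and SYT1). Passing the filter did not separate the marker sets by level. Condition means ran from 0.302 to 0.635 CPM for SOX9 and from 0.848 to 1.14 CPM for GFAP. For CD68 they ran from 20.4 to 65.0 CPM and for SYT1 from 26.6 to 114.4 CPM. The glial markers FABP7, S100B, NES, CD44 and VIM had condition means of 27.0 CPM or more. PTPRC had 88 counts over the 12 libraries, CD3E 4, PECAM1 11, CDH5 2, EPCAM 3, KRT5 13 and RBFOX3 101. These markers moved with the conditions. The 10 other-cell markers summed to 46.0 to 51.3 CPM at 10 mM glucose, 169.0 to 180.8 CPM with acetate and 160.9 to 182.2 CPM at 1 mM glucose, with SYT1 4.29-fold and CD68 2.87-fold lower and VWF 2.87-fold higher at 10 than at 1 mM glucose. VWF was also 3.08-fold higher with acetate than at 1 mM glucose. The 7 glial markers summed to 5786 to 5911 CPM at 10 mM glucose, 5909 to 6427 CPM with acetate and 6279 to 7633 CPM at 1 mM glucose. Most of that sum was VIM, which averaged 3768, 4473 and 5249 CPM in that order. NES, S100B and FABP7 were higher and VIM and CD44 lower at 10 than at 1 mM glucose, and with acetate S100B was higher and SOX9 and VIM lower. Their part in the histone values was not tested. A pair of libraries stood apart from their groups, 1 mM glucose replicate 3 and acetate replicate 1, in which log2 level relative to the other libraries fell with transcript length (Spearman's rho across genes -0.47 and -0.469). That correlation was between 0.116 and 0.227 in the 10 mM glucose libraries. It was between -0.177 and 0.133 in the other 1 mM glucose libraries, and between -0.000823 and 0.192 in the other acetate ones. The trend with length thus also ran in part with the condition. Each comparison below was also made without the pair of libraries that stood apart, and with length and GC trends removed.

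The 2 classes differed first in how much was counted. Replication-dependent genes gave between 1% and 1.56% of the histone counts of a library. Over all 12 libraries the 70 coding replication-dependent genes had 8463 counts and the 16 coding variant genes 703402. Summed levels of the variant genes were 2641 ± 65.8 CPM at 10 mM glucose, 2008 ± 144 CPM in the acetate libraries and 2056 ± 166 CPM at 1 mM glucose (SD, n = 4 libraries each). All 4 of the 10 mM glucose libraries, from 2572 to 2700.3 CPM, lay above the acetate libraries, from 1883 to 2215 CPM, and above the 1 mM glucose libraries, from 1922 to 2282 CPM. Summed levels of the replication-dependent genes were 28.6 ± 1.64 CPM at 10 mM glucose, 23.0 ± 2.37 CPM with acetate and 29.5 ± 3.36 CPM at 1 mM glucose. Here the 10 mM and 1 mM glucose libraries overlapped, and the highest acetate library (25.2 CPM) was just below the lowest 1 mM glucose library (25.3 CPM).

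Parts of the replication-dependent class differed within that sum. Its 8 genes with the highest mean CPM, which hold 5774 of the counts, summed to 17.6 ± 0.155 CPM at 10 mM glucose, 16.4 ± 1.65 CPM with acetate and 21.4 ± 2.02 CPM at 1 mM glucose. The other 62 coding genes, with 2689 counts, summed to 10.9 ± 1.78 CPM at 10 mM glucose, 6.55 ± 0.804 CPM with acetate and 8.13 ± 1.63 CPM at 1 mM glucose. So the mean of the 8 was 0.826 times, and that of the 62 1.34 times, the 1 mM glucose mean at 10 mM glucose. The 8 did not move together. By the test given below, HIST1H2AC, HIST1H2BD and HIST1H2BH were higher at 10 than at 1 mM glucose. HIST1H1C, HIST2H2BE, HIST2H2BF and HIST3H2A were lower, and HIST1H2BK was not called. Much of the fall in their sum lay in HIST3H2A (1.08 against 2.93 CPM) and HIST2H2BE (2.23 against 3.28 CPM). For the 62 genes the 10 mM and 1 mM glucose ranges overlapped (9.42 to 13.3 CPM against 6.28 to 10.2 CPM). These sums are descriptions with no test, since the genes are not replicates of a condition.

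**Figure D1:**
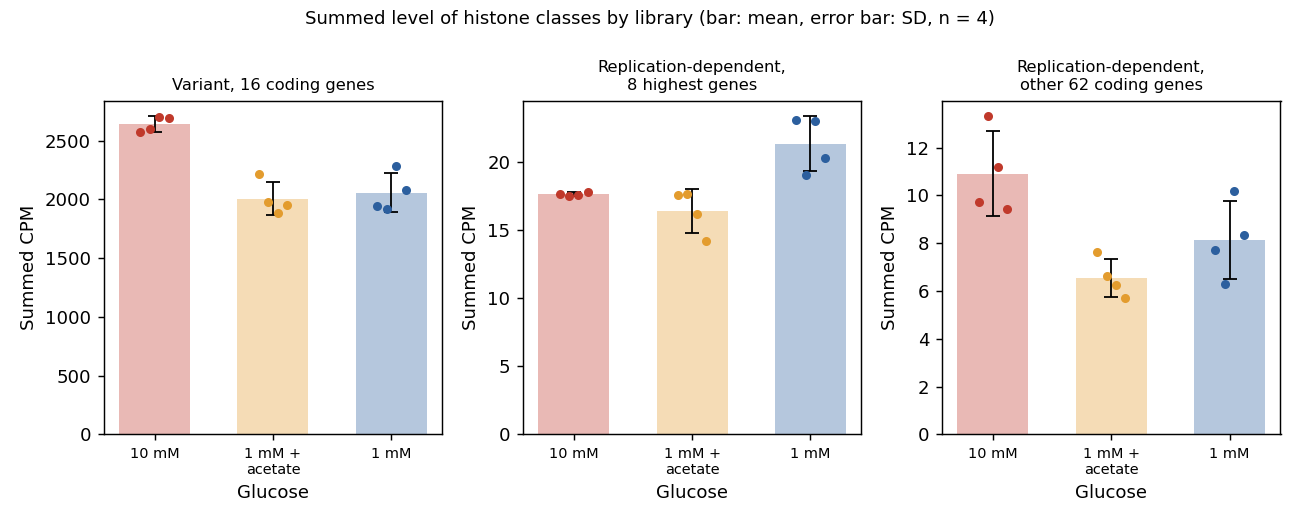
Summed CPM per library (points) with the mean (bar) and SD (error bar, n = 4) for the 10 mM glucose, acetate and 1 mM glucose libraries, over the 16 coding variant genes, the 8 replication-dependent genes with the highest mean CPM and the other 62 coding replication-dependent genes. The variant sum is highest at 10 mM glucose (2641 ± 65.8 CPM), and the sum of the 8 is highest at 1 mM glucose (21.4 ± 2.02 CPM).

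The first comparison asks what 10 mM glucose changes relative to 1 mM. A gene counts as called where its Benjamini-Hochberg adjusted p in edgeR's quasi-likelihood test was under 0.05 over all 14416 genes tested. Glucose moved much of the transcriptome: 67.5% of all genes tested were called. Of the genes tested, 33.7% were higher and 33.8% lower at 10 mM glucose, with a median log2 fold change of 0.00. That split (4854 higher, 4871 lower) depends on the scaling: with library totals in place of TMM it was 6241 higher and 3611 lower, and the median of all genes was 0.14. Of the 18 variant members 13 were tested, and of these 10 were higher, 1 was lower and 2 were not called, with a median log2 fold change of 0.31. H3F3A and its pseudogene H3F3AP4 hold the same counts, and taken once they leave 9 of 12 higher, with a median of 0.34. Among the 72 replication-dependent members 18 were tested, and of these 6 were higher, 4 were lower and 8 were not called, also with a median of 0.31. That second median depends on which members had enough counts, because 6 of the 18 (HIST1H1B, HIST1H1E, HIST1H2AG, HIST1H2BC, HIST1H2BJ and HIST1H2BN) passed the count filter only with the 10 mM glucose libraries. Over the 12 that passed without those libraries, 3 were higher and 4 lower at 10 mM glucose, with a median of -0.10. The 13 variant members all passed without the 10 mM glucose libraries, though H2AFY2 passed only with the 1 mM glucose libraries.

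**Figure D2:**
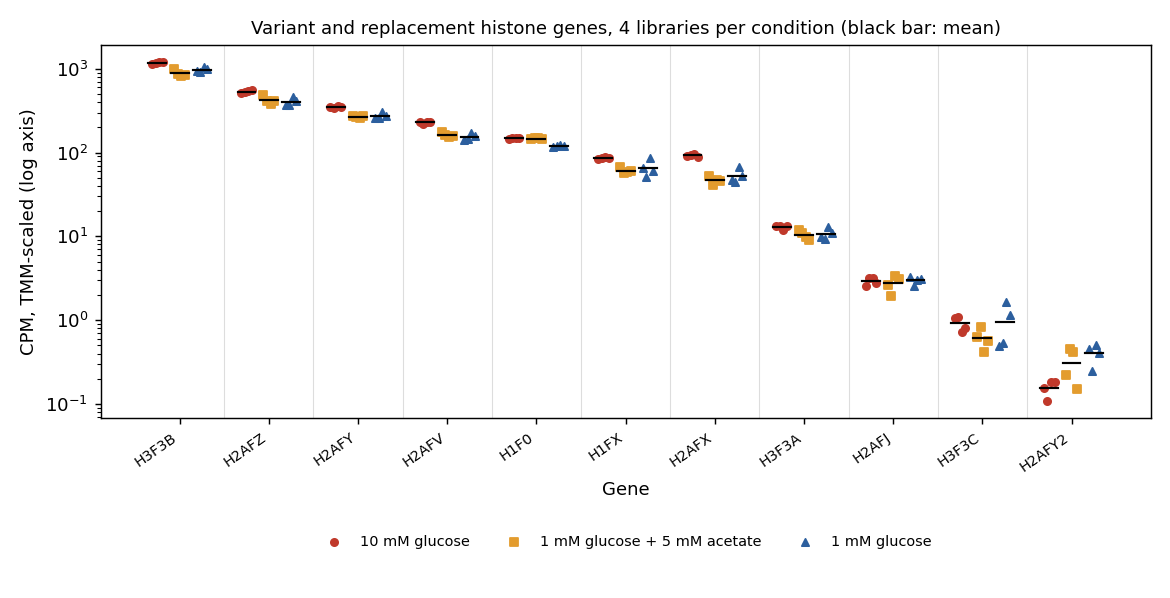
CPM (TMM-scaled, log axis) of the 11 tested coding variant histone genes in the 4 libraries of each condition, with a black bar at the mean. The 10 mM glucose points lie above both other conditions for H3F3B, H2AFZ, H2AFY, H2AFV and H2AFX, while for H1F0 the acetate points lie level with those at 10 mM glucose.

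The most abundant members code for H3.3, the replacement form of H3 that the HIRA and DAXX chaperones deposit outside replication. H3F3B had 1144, 1158, 1218 and 1212 CPM at 10 mM glucose, 1002, 874, 825 and 851 CPM with acetate, and 929.8, 923, 1049 and 994 CPM at 1 mM glucose. Every 10 mM glucose library was above every other library. H3F3B was 1.21-fold higher at 10 than at 1 mM glucose (log2 fold change 0.28 ± 0.07 SE, edgeR adjusted p = 0.00152). H3F3A, the second H3.3 gene, had 13.2, 13.4, 11.8 and 13.4 CPM at 10 mM glucose, 12.0, 10.9, 9.92 and 8.96 CPM with acetate, and 9.85, 9.32, 12.9 and 10.9 CPM at 1 mM glucose. Its 10 mM and 1 mM glucose ranges overlapped through 10 mM glucose replicate 3 and 1 mM glucose replicate 3. The call for H3F3A (log2 fold change 0.27 ± 0.11, adjusted p = 0.0359) ended without any of 1 mM glucose replicates 1, 2 and 4 or 10 mM glucose replicates 1, 2 and 4, where the adjusted p was between 0.0618 and 0.106. It also ended with the replicate number as a block in the edgeR fit (adjusted p = 0.063). H3F3A and its pseudogene H3F3AP4 had identical counts in all 12 libraries, so they are 1 measurement, and reads of the 2 cannot be told apart. H3F3C, a retrocopy expressed in primate testis, averaged 0.916 ± 0.178 CPM at 10 mM glucose and 0.951 ± 0.547 CPM at 1 mM glucose and was not called (95% interval of the log2 fold change -0.77 to 0.64).

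H2A.Z, which marks promoters and enhancers, is made by H2AFZ and H2AFV. H2AFZ had 513, 530.2, 539 and 553 CPM at 10 mM glucose, 482, 415, 377 and 408 CPM with acetate, and 369, 373, 463 and 412 CPM at 1 mM glucose. The lowest 10 mM glucose library was above the highest of the other 8. Its level was 1.32-fold higher at 10 than at 1 mM glucose (log2 fold change 0.40 ± 0.08, adjusted p = 0.000503). H2AFV had 234, 222, 232 and 234 CPM at 10 mM glucose, 174, 161, 154 and 159 CPM with acetate, and 143, 144, 169.9 and 156 CPM at 1 mM glucose. Again the 10 mM glucose libraries did not overlap the others, and H2AFV was 1.51-fold higher than at 1 mM glucose (log2 fold change 0.59 ± 0.06, adjusted p = 8.04e-07). The 4 other H2AFV transcripts in the files had between 47275 and 53195 counts against 57406 for the one used, so reads were largely shared between them and isoforms were not separated.

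H2AFX, which codes for the H2A.X that is phosphorylated beside DNA breaks, rose most among the coding variant genes. It stood at 90.5, 93.6, 97.2 and 89.2 CPM in the 10 mM glucose libraries, 52.5, 40.8, 46.6 and 46.3 CPM with acetate, and 47.5, 44.6, 68.1 and 52.8 CPM at 1 mM glucose. The 1 mM glucose libraries spread more than the others, with replicate 3 well above its group, yet stayed below all 10 mM glucose libraries. H2AFX was 1.74-fold higher at 10 mM glucose (log2 fold change 0.80 ± 0.11, adjusted p = 1.4e-05), and the log2 fold change was 0.94 without the pair of libraries that stood apart. Its transcript is the one variant transcript with the stem-loop printed above.

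MacroH2A carries a large folded domain beside the H2A part and is found on silent chromatin. H2AFY, the gene of macroH2A1, had 346, 343, 361 and 352 CPM at 10 mM glucose, 277, 269, 258 and 272 CPM with acetate, and 256, 255, 306 and 269.6 CPM at 1 mM glucose. The 10 mM glucose libraries lay above all others, and the gene was 1.29-fold higher than at 1 mM glucose (log2 fold change 0.37 ± 0.06, adjusted p = 6.83e-05). Its 4 transcripts had between 92978 and 93482 counts, so the splice forms of macroH2A1 were not told apart. H2AFY2, the gene of macroH2A2, was the only tested variant gene called lower. It had 0.155, 0.109, 0.182 and 0.182 CPM at 10 mM glucose, 0.222, 0.458, 0.416 and 0.151 CPM with acetate, and 0.448, 0.246, 0.507 and 0.408 CPM at 1 mM glucose. All its 10 mM glucose libraries were below all 1 mM glucose libraries (log2 fold change -1.34 ± 0.39, 2.52-fold lower, adjusted p = 0.00727). The gene had 90 counts in all, and in a fit of only the 8 libraries compared it did not pass the count filter.

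Linker variants are the H1.0 gene H1F0, known to rise in cells that leave the cell cycle or differentiate, and the H1.X gene H1FX. H1F0 had 145, 147, 149 and 150.5 CPM at 10 mM glucose, 146, 148, 148 and 144 CPM with acetate, and 117, 119, 123 and 118 CPM at 1 mM glucose. Every library of the first 2 conditions was above every 1 mM glucose library, and H1F0 was 1.24-fold higher at 10 than at 1 mM glucose (log2 fold change 0.31 ± 0.04, adjusted p = 1.12e-05). H1FX had 83.7, 86.6, 87.6 and 86.1 CPM at 10 mM glucose, 66.4, 57.3, 59.3 and 60.1 CPM with acetate, and 65.8, 51.3, 85.3 and 59.8 CPM at 1 mM glucose. Its 10 mM and 1 mM glucose ranges overlapped only through 1 mM glucose replicate 3. H1FX was 1.31-fold higher at 10 mM glucose (log2 fold change 0.39 ± 0.11, adjusted p = 0.00652), and the log2 fold change was 0.54 without the pair of libraries that stood apart. H1FX-AS1, an RNA from the opposite strand beside H1FX, averaged 3.23 ± 0.24 CPM at 10 mM glucose and 1.67 ± 0.249 CPM at 1 mM glucose (log2 fold change 0.94 ± 0.13, adjusted p = 2.11e-05). Its groups did not overlap, but the strand setting of the counts is not given, so its reads and those of H1FX cannot be told apart where they overlap. H2AFJ, which codes for H2A.J, averaged 2.95 ± 0.304 CPM at 10 mM glucose and 2.99 ± 0.307 CPM at 1 mM glucose and was not called (95% interval of the log2 fold change -0.34 to 0.31).

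Per transcript length, the mean levels of the tested coding variant genes over the 12 libraries ran from 462 CPM per kb for H2AFZ to 0.147 CPM per kb for H2AFY2. H3F3B followed with 375 CPM per kb, then H2AFY with 158 CPM per kb and H1F0 with 58.9 CPM per kb. H2AFV, H1FX and H2AFX lay close together at 47.9, 47.0 and 39.7 CPM per kb. The remaining genes were at 10.5 CPM per kb for H3F3A, 4.50 for H2AFJ and 0.782 for H3F3C. The same counts over the shorter transcript of the pseudogene H3F3AP4 gave 27.7 CPM per kb, so the value of H3F3A is uncertain.

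Acetate added to 1 mM glucose changed far fewer genes. Over all genes tested 13.7% were called, 6.65% higher and 7.09% lower with acetate than at 1 mM glucose alone (958 and 1022 genes, against 1376 and 734 with library totals). Of the 13 tested variant members 1 was called higher, H1F0, and none lower, with a median log2 fold change of -0.04 against 0.00 over all genes. At an unadjusted p under 0.05 edgeR also gave no lower variant gene, DESeq2 and limma-voom called none lower, and DESeq2 gave 1 at that unadjusted level, H3F3B. H1F0 was 1.23-fold higher with acetate than at 1 mM glucose (log2 fold change 0.30 ± 0.04, adjusted p = 0.00041). That call held in all 24 alternatives tried, with adjusted p up to 0.0062. For the other abundant variants the 95% intervals of the log2 fold change bound what acetate could have done at this spread. They were -0.27 to 0.01 for H3F3B, -0.12 to 0.23 for H2AFZ, -0.14 to 0.11 for H2AFY, -0.05 to 0.22 for H2AFV, -0.35 to 0.13 for H1FX and -0.43 to 0.04 for H2AFX. H3F3B (log2 fold change -0.13, adjusted p = 0.196) was called lower without acetate replicate 1 (adjusted p = 0.0222), and its adjusted p over the alternatives was between 0.0143 and 0.421.

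Set directly against acetate, 10 mM glucose left most variant genes higher. In that comparison 62.8% of all genes were called, 31.0% higher and 31.8% lower at 10 mM glucose (4471 and 4578 genes, against 5563 and 3586 with library totals). Of the 13 tested variant members 9 were higher and none was lower, with a median log2 fold change of 0.38, or 8 of 12 with H3F3A and H3F3AP4 taken once (median 0.40). At an unadjusted p under 0.05 edgeR gave 1 lower variant gene, H2AFY2, while DESeq2 and limma-voom gave none. H2AFY2 (log2 fold change -0.97, adjusted p = 0.0513) was called lower without 1 mM glucose replicate 2 or acetate replicate 1 or 4 (adjusted p between 0.0155 and 0.0433), and its adjusted p over the alternatives was between 0.0155 and 0.166. H2AFX was 1.99-fold higher at 10 mM glucose than with acetate (log2 fold change 0.99 ± 0.11, adjusted p = 2.04e-06), H2AFV 1.42-fold (0.51 ± 0.06, adjusted p = 4.99e-06) and H1FX-AS1 1.76-fold (0.82 ± 0.13, adjusted p = 7.73e-05). H3F3A was also called (0.31 ± 0.11, adjusted p = 0.0192), but not without acetate replicate 3 (adjusted p = 0.0513) or 4 (adjusted p = 0.0659). For H1F0 the log2 fold change between 10 mM glucose and acetate was 0.01 (95% interval -0.08 to 0.10, adjusted p = 0.813). It was called higher at 10 mM glucose only with library totals (0.12, adjusted p = 0.0268, against up to 0.965 over the alternatives). The 3 comparisons share libraries, so their values for a gene are not independent.

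**Figure D3:**
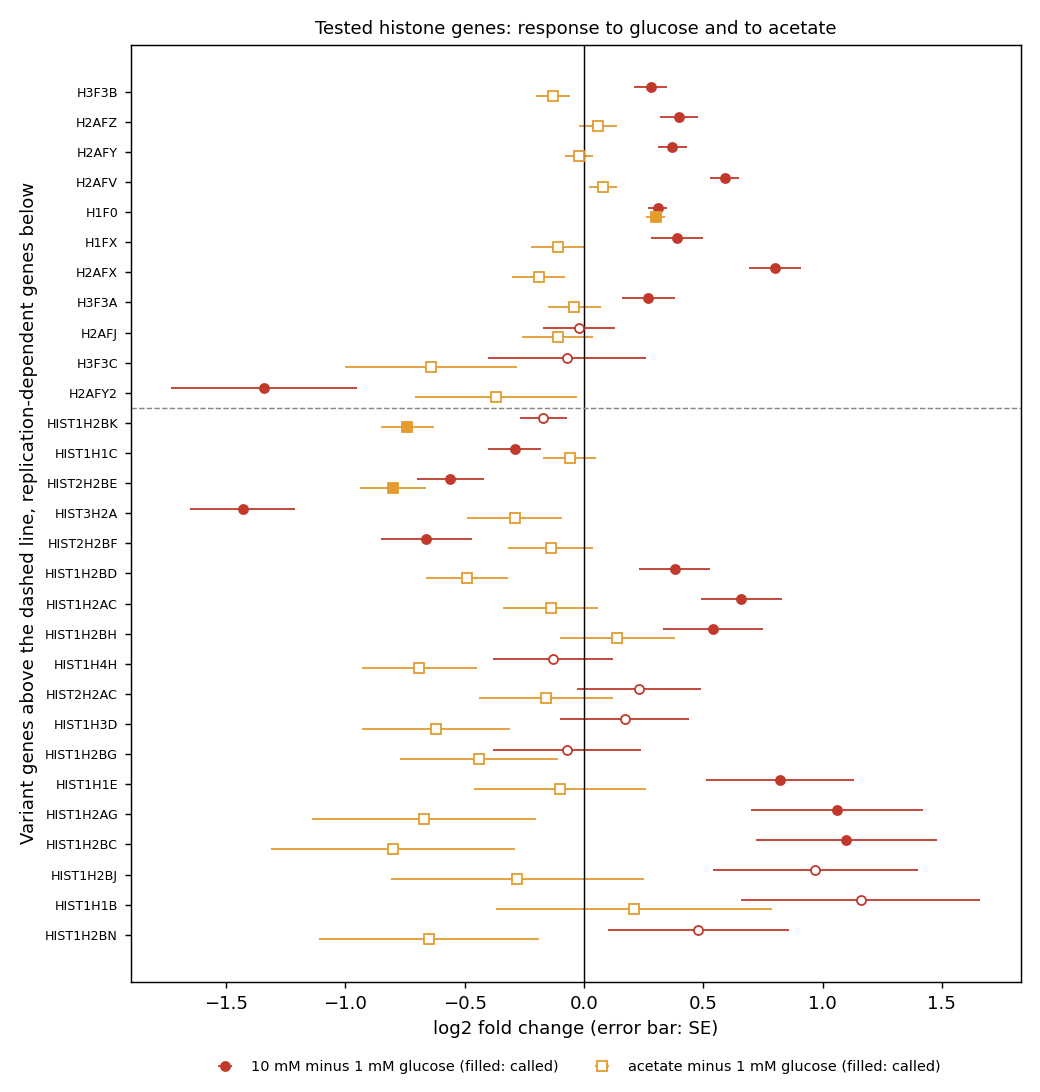
Log2 fold changes with SE of the 29 tested coding histone genes at 10 mM over 1 mM glucose (circles) and with acetate over 1 mM glucose alone (squares), filled where called. Most variant circles lie to the right of 0 and their squares near it, except H1F0 at 0.31 and 0.30, while the replication-dependent genes lie on both sides.

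Replication-dependent genes are described next in the order H1, H2A, H2B, H3 and H4, with the low counts behind each in view. HIST1H1C, which codes for H1.2 and had 1343 of the 1620 counts of the H1 members, stood at 3.68, 3.67, 3.72 and 4.11 CPM at 10 mM glucose, 4.99, 4.58, 4.24 and 4.01 CPM with acetate, and 4.93, 3.90, 5.26 and 4.41 CPM at 1 mM glucose. The 10 mM glucose libraries were low and close together, and only replicate 4 reached into the 1 mM glucose range. It was called lower at 10 than at 1 mM glucose (log2 fold change -0.29 ± 0.11, adjusted p = 0.0307), but not with library totals (-0.14, adjusted p = 0.254), with length and GC trends removed (-0.06, adjusted p = 0.556) or without the pair of libraries that stood apart (-0.22, adjusted p = 0.0832). The call ended without 1 mM glucose replicate 1 or 3 or 10 mM glucose replicate 1, 2 or 3, with adjusted p between 0.0624 and 0.0978, and over all alternatives the adjusted p was between 0.00839 and 0.556. HIST1H1E, the H1.4 gene, averaged 0.588 ± 0.182 CPM at 10 mM glucose and 0.331 ± 0.135 CPM at 1 mM glucose (log2 fold change 0.82 ± 0.31, adjusted p = 0.0311). Its groups overlapped, and the call ended without 1 mM glucose replicate 1 or 2 or 10 mM glucose replicate 2 or 4 (adjusted p between 0.0734 and 0.0979). It also ended in DESeq2 (adjusted p = 0.0553) and in edgeR with the replicate block (adjusted p = 0.0539). Against acetate HIST1H1E was also higher at 10 mM glucose (0.92, adjusted p = 0.019), and that call ended without acetate replicate 4 or 10 mM glucose replicate 2 or 4 (adjusted p between 0.0553 and 0.0654).

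In the H2A subgroup HIST3H2A, the H2A gene of the small cluster on chromosome 1, had the largest log2 fold change of all tested members at 10 over 1 mM glucose. It had 0.774, 1.23, 1.53 and 0.801 CPM at 10 mM glucose, 2.73, 2.75, 2.23 and 1.85 CPM with acetate, and 3.54, 2.14, 3.12 and 2.94 CPM at 1 mM glucose. Every 10 mM glucose library was below every library of the other conditions. HIST3H2A was 2.69-fold lower at 10 than at 1 mM glucose (log2 fold change -1.43 ± 0.22, adjusted p = 4.76e-05) and 2.19-fold lower than with acetate (-1.13 ± 0.23, adjusted p = 0.000528). HIST1H2AC, of the large cluster on chromosome 6, went the other way, with 1.55, 1.74, 1.49 and 1.35 CPM at 10 mM glucose, 0.961, 0.992, 0.946 and 0.605 CPM with acetate, and 1.06, 0.903, 1.13 and 0.775 CPM at 1 mM glucose. The 10 mM glucose libraries did not overlap the other 8. It was 1.58-fold higher at 10 than at 1 mM glucose (0.66 ± 0.17, adjusted p = 0.00383) and 1.75-fold higher than with acetate (0.80 ± 0.18, adjusted p = 0.00104). HIST1H2AG had 0.929, 0.363, 0.875 and 0.400 CPM at 10 mM glucose, 0.185, 0.153, 0.151 and 0.265 CPM with acetate, and 0.244, 0.329, 0.429 and 0.204 CPM at 1 mM glucose. Its 10 mM glucose libraries were spread widely and overlapped those at 1 mM glucose but not those with acetate. HIST1H2AG was higher than at 1 mM glucose (1.06 ± 0.36, adjusted p = 0.0171), a call that ended without 1 mM glucose replicate 4 or 10 mM glucose replicate 1 or 3 (adjusted p between 0.053 and 0.0628), and 3.33-fold higher than with acetate (1.73 ± 0.39, adjusted p = 0.00139). HIST2H2AC averaged 0.581 ± 0.0668 CPM at 10 mM glucose and 0.492 ± 0.179 CPM at 1 mM glucose and was not called in any comparison.

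H2B was the best counted subgroup, with 4150 counts and 9 of 20 members tested. HIST1H2BK had 4.30, 5.05, 4.78 and 5.28 CPM at 10 mM glucose, 3.29, 3.78, 3.03 and 2.99 CPM with acetate, and 5.70, 4.85, 6.01 and 5.30 CPM at 1 mM glucose. The acetate libraries were below all others, and the 10 mM and 1 mM glucose libraries overlapped. HIST1H2BK was 1.67-fold lower with acetate than at 1 mM glucose (log2 fold change -0.74 ± 0.11, adjusted p = 0.000517) and 1.48-fold higher at 10 mM glucose than with acetate (0.57 ± 0.11, adjusted p = 0.000333). Between 10 and 1 mM glucose it was not called (-0.17 ± 0.10, 95% interval -0.39 to 0.05), and the sign turned once each library's trend over length and GC content was removed (0.06). HIST2H2BE had 2.71, 2.25, 1.86 and 2.11 CPM at 10 mM glucose, 2.14, 1.68, 2.08 and 1.63 CPM with acetate, and 3.71, 2.96, 3.35 and 3.10 CPM at 1 mM glucose. Here the 1 mM glucose libraries were above all 8 others. HIST2H2BE was 1.47-fold lower at 10 than at 1 mM glucose (-0.56 ± 0.14, adjusted p = 0.00215) and 1.74-fold lower with acetate than at 1 mM glucose (-0.80 ± 0.14, adjusted p = 0.00186).

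HIST2H2BF, in the same cluster on chromosome 1 as HIST2H2BE, had 1.55, 0.907, 1.31 and 1.16 CPM at 10 mM glucose, 1.59, 1.87, 1.89 and 1.70 CPM with acetate, and 2.00, 2.55, 1.64 and 1.59 CPM at 1 mM glucose. The 10 mM glucose libraries were the lowest, narrowly so, since replicate 1 (1.55 CPM) was close to the lowest of the others (1.59 CPM). It was 1.58-fold lower than at 1 mM glucose (-0.66 ± 0.19, adjusted p = 0.00606) and 1.43-fold lower than with acetate (-0.52 ± 0.19, adjusted p = 0.0255). The call against acetate ended without acetate replicate 2 or 3 or 10 mM glucose replicate 2 or 4, with adjusted p between 0.0579 and 0.0863. It also ended in edgeR with library totals (adjusted p = 0.0648) and with length and GC trends removed (0.0707, or 0.102 with the replicate block as well). HIST1H2BD had 2.21, 1.60, 2.08 and 2.22 CPM at 10 mM glucose, 1.15, 1.26, 1.06 and 0.945 CPM with acetate, and 1.55, 1.31, 1.87 and 1.47 CPM at 1 mM glucose. Its 10 mM glucose libraries were above all acetate libraries and overlapped those at 1 mM glucose through replicate 2. HIST1H2BD was 1.83-fold higher at 10 mM glucose than with acetate (0.87 ± 0.16, adjusted p = 0.000232). Over 1 mM glucose (0.38 ± 0.15, adjusted p = 0.0372) the call ended without 1 mM glucose replicate 1, 2 or 4 or 10 mM glucose replicate 1, 3 or 4 (adjusted p between 0.0669 and 0.106). It was also lost in DESeq2 (adjusted p = 0.0776), and in edgeR with no filter (0.0578) or only the 8 libraries compared (0.0538). The transcript used for HIST1H2BD had 490 counts, and a second one, which does carry the stem-loop letters, had 382 counts and averaged 1.5 ± 0.137 CPM at 10 mM glucose, 0.83 ± 0.118 CPM with acetate and 1.32 ± 0.271 CPM at 1 mM glucose. For HIST2H2BF a second transcript had 77 counts, against 512 for the one used, and was not lower at 10 mM glucose. In the same order it averaged 0.276 ± 0.102, 0.245 ± 0.153 and 0.213 ± 0.118 CPM, and it was not tested.

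**Figure D4:**
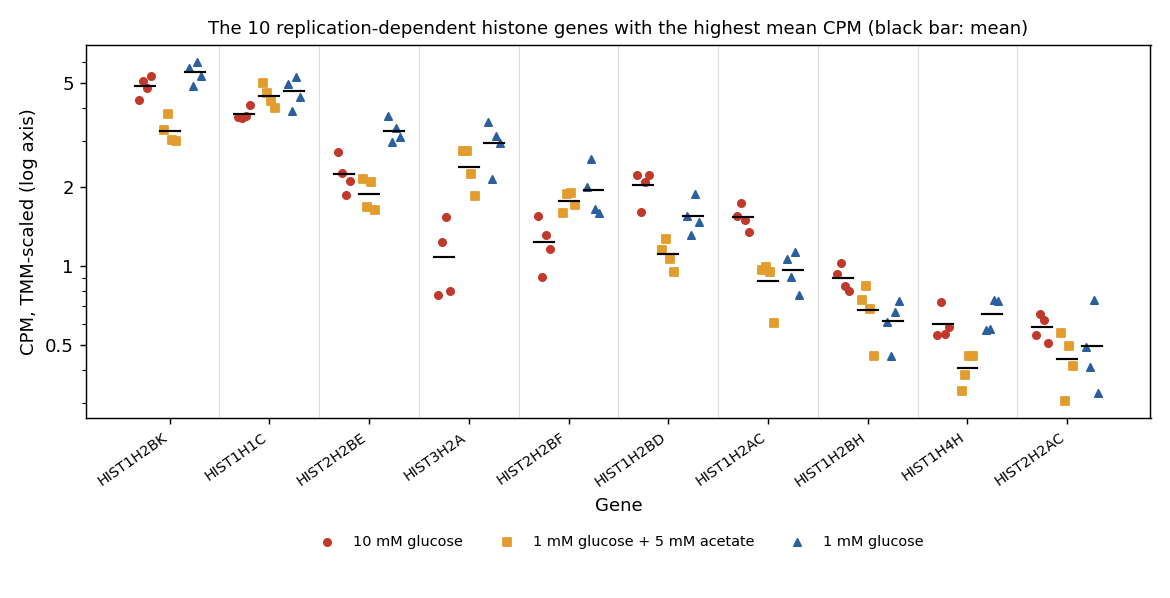
CPM (TMM-scaled, log axis) of the 10 replication-dependent histone genes with the highest mean CPM in the 4 libraries of each condition, with a black bar at the mean. HIST3H2A and HIST2H2BF are lowest at 10 mM glucose, HIST1H2AC is highest there, HIST1H2BK is lowest with acetate and HIST2H2BE is highest at 1 mM glucose.

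The remaining H2B genes were lower in counts. HIST1H2BH had 0.929, 1.02, 0.838 and 0.801 CPM at 10 mM glucose, 0.739, 0.839, 0.681 and 0.454 CPM with acetate, and 0.611, 0.452, 0.663 and 0.734 CPM at 1 mM glucose. The 10 mM and 1 mM glucose libraries did not overlap (0.54 ± 0.21, adjusted p = 0.035), and the call ended without 1 mM glucose replicate 1 or 2 or 10 mM glucose replicate 1 or 2 (adjusted p between 0.0642 and 0.122). It was also lost in DESeq2 (adjusted p = 0.088), and in edgeR with no filter (0.0591) or with the replicate block (0.0577). HIST1H2BC had 0.774, 0.690, 0.766 and 0.218 CPM at 10 mM glucose, 0.185, 0.114, 0.189 and 0.151 CPM with acetate, and 0.244, 0.164, 0.468 and 0.245 CPM at 1 mM glucose. In 3 of the 10 mM glucose libraries it was above every other library, and replicate 4 lay within the 1 mM glucose range. HIST1H2BC was higher than at 1 mM glucose (1.10 ± 0.38, adjusted p = 0.0198), a call lost without 1 mM glucose replicate 2 or 10 mM glucose replicate 1 or 3 (adjusted p between 0.0564 and 0.058), and 3.73-fold higher than with acetate (1.90 ± 0.43, adjusted p = 0.00129). HIST1H2BJ had 0.503, 0.436, 0.547 and 0.509 CPM at 10 mM glucose, 0.185, 0.191, 0.265 and 0.189 CPM with acetate, and 0, 0.493, 0.234 and 0.286 CPM at 1 mM glucose. Its 10 mM glucose libraries were above all acetate libraries, and the 1 mM glucose libraries spread over both. It was 2.37-fold higher at 10 mM glucose than with acetate (adjusted p = 0.0243), a call lost without acetate replicate 2 or 4 or 10 mM glucose replicate 3 (adjusted p between 0.0512 and 0.0534). That call was also lost in limma-voom (adjusted p = 0.0856). Over 1 mM glucose HIST1H2BJ was not called in edgeR with TMM scaling (0.97, adjusted p = 0.061). It was called higher without 1 mM glucose replicate 2 (adjusted p = 0.0102), with library totals (1.11, adjusted p = 0.0341), in limma-voom (1.61, adjusted p = 0.0332) and with length and GC trends removed (1.21, adjusted p = 0.0219), and the adjusted p over all alternatives was between 0.0102 and 0.132. HIST1H2BN was called higher at 10 mM glucose than with acetate (1.13 ± 0.42, adjusted p = 0.0285), but not without acetate replicate 4 (adjusted p = 0.0832). HIST1H2BG was not called in any comparison, although without acetate replicate 1 it was called higher at 10 mM glucose than with acetate (0.83, adjusted p = 0.0393, between 0.0361 and 0.666 over the alternatives).

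Of the H3 and H4 genes, whose proteins form the centre of the nucleosome, 1 each was tested. HIST1H3D had 0.426, 0.798, 0.437 and 0.691 CPM at 10 mM glucose, 0.480, 0.305, 0.189 and 0.378 CPM with acetate, and 0.611, 0.452, 0.507 and 0.530 CPM at 1 mM glucose. The groups overlapped, and it was called higher at 10 mM glucose than with acetate (0.79 ± 0.29, adjusted p = 0.0293). That call ended without acetate replicate 2 or 3 or 10 mM glucose replicate 2 or 4 (adjusted p between 0.0663 and 0.108), and in DESeq2 (adjusted p = 0.0506). HIST1H4H had 0.542, 0.726, 0.547 and 0.582 CPM at 10 mM glucose, 0.333, 0.382, 0.454 and 0.454 CPM with acetate, and 0.570, 0.575, 0.741 and 0.734 CPM at 1 mM glucose. Its acetate libraries were below all others, but edgeR called neither comparison with acetate (adjusted p = 0.0748 against 1 mM glucose and 0.0667 for 10 mM glucose against acetate). In limma-voom HIST1H4H was called in both (adjusted p = 0.0413 and 0.03), and against acetate also with library totals (0.66, adjusted p = 0.0282) and with length and GC trends removed (0.76, adjusted p = 0.00984). Over the alternatives its adjusted p was between 0.0413 and 0.21 against 1 mM glucose and between 0.00984 and 0.191 for 10 mM glucose against acetate. Over all 29 coding H3 and H4 members, with 1037 counts, the sums were 3.84 ± 0.954 CPM at 10 mM glucose, 2.73 ± 0.225 CPM with acetate and 3.31 ± 0.878 CPM at 1 mM glucose, and the 10 mM and 1 mM glucose ranges overlapped.

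With acetate, 2 of the 18 tested replication-dependent genes were called lower, HIST1H2BK and HIST2H2BE, and none higher, against the background of 7.09% lower and 6.65% higher over all genes. No replication-dependent gene was higher at an unadjusted p under 0.05 in edgeR, and DESeq2 and limma-voom called none higher. The median log2 fold change was -0.37. At an unadjusted p under 0.05, 4 were lower, the other two being HIST1H2BD (log2 fold change -0.49, adjusted p = 0.0665) and HIST1H4H (-0.69). HIST1H2BD was called lower without 1 mM glucose replicate 2 (adjusted p = 0.0446), and its adjusted p over the alternatives was between 0.0432 and 0.177. The calls of HIST1H2BK and HIST2H2BE held in all 23 alternatives that kept the genes, with adjusted p up to 0.00473 and 0.00883. Summed over the H2B members the level was 14.5 ± 0.393 CPM at 10 mM glucose, 10.3 ± 0.952 CPM with acetate and 15 ± 0.794 CPM at 1 mM glucose. The highest acetate library (11 CPM) was below the lowest 10 mM glucose (14.1 CPM) and 1 mM glucose (14.0 CPM) libraries. Most of the difference from 1 mM glucose lay in the 2 called genes. HIST1H2BK averaged 5.46 CPM at 1 mM glucose and 3.27 CPM with acetate, and HIST2H2BE 3.28 and 1.88 CPM. HIST1H2BH was not lower, at 0.615 and 0.678 CPM. The H1 sum did not separate the acetate libraries from the others, with 5.03 ± 0.463 CPM at 10 mM glucose, 5.20 ± 0.498 CPM with acetate and 5.27 ± 0.759 CPM at 1 mM glucose. Ranges of the H2A, H3 and H4 sums with acetate also overlapped both other conditions. Those sums were 4.95 ± 0.813, 1.34 ± 0.242 and 1.39 ± 0.206 CPM with acetate and 6.10 ± 0.993, 1.84 ± 0.474 and 1.47 ± 0.418 CPM at 1 mM glucose.

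At 10 mM glucose against acetate, 9 of the 18 tested replication-dependent genes were higher and 2 lower, beside 31.0% and 31.8% of all genes, with a median log2 fold change of 0.68. Over the 12 that passed the filter without the 10 mM glucose libraries, 4 were higher and 2 lower, with a median of 0.39. HIST1H2BC (3.73-fold), HIST1H2AG (3.33-fold) and HIST1H2BJ (2.37-fold) had the largest log2 fold changes among those called, and all 3 passed the filter only with the 10 mM glucose libraries. HIST2H2BF and HIST3H2A were the 2 lower ones.

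Most replication-dependent genes had too few counts for a test. The 54 that did not pass had at most 88 counts each over the 12 libraries (HIST1H2AE), and 17 replication-dependent members had fewer than 10. The untested coding genes, 52 in number, summed to 5.48 ± 1.33 CPM at 10 mM glucose, 3.73 ± 0.489 CPM with acetate and 4.32 ± 1.13 CPM at 1 mM glucose, with overlapping 10 mM and 1 mM glucose ranges. After HIST1H2AE the best counted were HIST2H2BC with 79 counts, HIST1H3C and HIST1H4E with 78 each and HIST1H3E with 72. At 0 in every library were 9 members (H1FOO, H2AFB2, HIST1H2BA, HIST1H4F, HIST1H4G, HIST2H3A, HIST2H3C, HIST2H4A and HIST2H4B), which allows up to 0.00957 CPM over the 12 libraries, for counting error only. HIST2H3A and HIST2H3C, and likewise HIST2H4A and HIST2H4B, are duplicated copies, as are HIST2H2AA3 and HIST2H2AA4 with 1 count each. How reads that match several near-identical genes were counted is not given, so a 0 for such a pair is not evidence of no expression, and the split of reads among the histone genes in general is uncertain. Among variants the 5 untested members were H1FNT with 4 counts, H1FOO and H2AFB2 with 0, and H2AFB1 and H2AFB3 with 10 each, all known from germ cells.

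The proteins that make and place histones were read beside these genes. Of 12 genes for histone gene transcription and 3′ end processing, 5 were higher and 3 lower at 10 than at 1 mM glucose, beside 33.7% and 33.8% of all genes, with a median log2 fold change of 0.14. SLBP, which binds the stem-loop printed above, averaged 80.1 ± 3.10 CPM at 10 mM glucose, 63.7 ± 3.66 CPM with acetate and 60.5 ± 3.01 CPM at 1 mM glucose. It was 1.33-fold higher at 10 than at 1 mM glucose (0.41 ± 0.06, adjusted p = 1.63e-05) and was not called with acetate (0.07 ± 0.06, adjusted p = 0.426). CPSF3, the nuclease that cuts histone pre-mRNA, was also higher at 10 mM glucose (0.33 ± 0.04, adjusted p = 8.07e-06), while HINFP, an activator of H4 genes, was lower (-0.51 ± 0.08, adjusted p = 3.36e-05). NPAT, the coactivator of replication-dependent histone genes, was not called between 10 and 1 mM glucose (0.20 ± 0.12, adjusted p = 0.153) or with acetate (0.25 ± 0.12, adjusted p = 0.197). Over the alternatives its adjusted p was between 0.0189 and 0.378 for 10 against 1 mM glucose and between 0.0328 and 0.434 with acetate, and without 1 mM glucose replicate 2 it was called in both. With acetate 1 of the 12 was higher, beside 6.65% of all genes, namely CASP8AP2, a partner of NPAT (0.48 ± 0.12, adjusted p = 0.0188), and none lower, though HINFP was lower at an unadjusted p under 0.05 (log2 fold change -0.16, adjusted p = 0.164). The CASP8AP2 call ended without 1 mM glucose replicate 4 or acetate replicate 3 or 4 (adjusted p between 0.0571 and 0.0643).

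Histone chaperones carry the proteins to DNA. Of 16 such genes 12 were higher and 1 was lower at 10 than at 1 mM glucose, beside 33.7% and 33.8% of all genes, with a median log2 fold change of 0.46. NASP, which holds soluble H3 and H4, averaged 216 ± 5.27 CPM at 10 mM glucose, 118 ± 3.09 CPM with acetate and 105 ± 2.53 CPM at 1 mM glucose (1.04 ± 0.04 for 10 over 1 mM glucose, adjusted p = 5.9e-11). CHAF1A, a subunit of the replication-coupled assembly factor CAF-1, was 2.12-fold higher (1.08 ± 0.06, adjusted p = 1.3e-09), and HJURP, the chaperone of the centromeric H3, 2.16-fold higher (1.11 ± 0.06, adjusted p = 5.24e-10). ASF1A was the lower one (-0.34 ± 0.06, adjusted p = 0.000287), whereas its paralog ASF1B was 2.48-fold higher (1.31 ± 0.10, adjusted p = 3.27e-08). With acetate 4 of the 16 were higher than at 1 mM glucose (CHAF1B, ANP32E, CHAF1A and NASP), beside 6.65% of all genes, and none lower, with a median of 0.06, though ASF1A was lower at an unadjusted p under 0.05 (-0.14, adjusted p = 0.174, between 0.00167 and 0.385 over the alternatives, 4 of which called it). CHAF1A lost its call without 1 mM glucose replicate 4 or acetate replicate 4 (adjusted p between 0.05 and 0.0501), and NASP without 1 mM glucose replicate 1 or acetate replicate 3 or 4 (adjusted p between 0.0506 and 0.073). CHAF1A, NASP and CASP8AP2 were also not called with only the 8 libraries compared.

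All 12 S phase genes examined were higher at 10 than at 1 mM glucose, beside 33.7% of all genes, with a median log2 fold change of 0.83, among them PCNA, the sliding clamp of replication (1.19 ± 0.08, adjusted p = 6.11e-09), and CCNA2, cyclin A2 (1.30 ± 0.06, adjusted p = 9.81e-11). With acetate 2 of them were higher, beside 6.65% of all genes, namely MCM2 and CDC45, parts of the replicative helicase, and none lower, also at an unadjusted p under 0.05 in edgeR, with a median of 0.17. CDC45 (0.21 ± 0.06, adjusted p = 0.0446) lost its call without any 1 library other than replicate 3 of 1 mM or of 10 mM glucose (10 libraries, adjusted p between 0.0577 and 0.135). With acetate PCNA (edgeR adjusted p = 0.0546) and CDK2 (0.0744) were not called, but 7 and 5 of 24 alternatives called them higher. CCNA2 (adjusted p = 0.955) was not called with acetate in any alternative. In bulk RNA a change in the share of cells in S phase and a change in RNA per cell cannot be told apart. The part of the S phase genes in the histone values was not tested.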

How the data were processed

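RNA from LN229 cells was sequenced in 12 libraries. The authors' values are raw counts, per the file headers, with 34917 RefSeq transcripts in each library and no normalization. The build was hg19, per the submitters' processing notes. Aligner, counter and strand setting were not given in the sources used. One transcript stood for each gene, the one the authors marked or, for 1362 of 22257 genes, that with the highest total. Groups came from the titles. The tests were run in R 4.3.3 with edgeR 4.0.16, with filterByExpr (14416 genes kept, about 0.385 CPM, 10 counts, in at least 4 libraries), TMM scaling and quasi-likelihood F tests on all 12 libraries together, with Benjamini-Hochberg adjustment over all genes tested. The common biological coefficient of variation was 8.51%. Fold changes carry their SE, and 95% intervals use the t quantile at edgeR's total degrees of freedom, both set to the p of the test, and levels are mean ± SD. Named in full were the 8 members of each class with the highest mean CPM and the 3 called members with the highest and the lowest fold change per class and comparison; HIST1H2BN, HIST1H3D, HIST1H4H and the uncalled genes were named after their values were seen. In the other gene lists the 3 called genes with the smallest p were named, with SLBP and NPAT; ASF1A, ASF1B and others were added after their values were seen. Members, lists and alternatives were chosen with earlier results of these data known. Alternatives were the DESeq2 1.42.0 Wald test, limma 3.58.1 (voom), library totals, size factors of the DESeq2 kind (edgeR's RLE method) and other filters. Others used other transcripts, only the 8 libraries compared, a replicate block or libraries left out. Length and GC trends were also removed (spline with 5 degrees of freedom).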

Additional observations from a re-analysis of the deposited data

Results flagged for a closer look

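The tested histone genes and the summed levels of both classes gave 99 groups of 4 libraries, 1 for each condition, and in each the highest and lowest library were set against the other 3 by Dixon's test at its 95% critical value. Chance flags about 1 in 20 groups, and 7 were flagged here, 2 of which are the same counts. At 10 mM glucose H2AFV was low in replicate 2, at 221.6 CPM against 232.4 to 234.3 CPM in the other 3 libraries. H3F3A, and H3F3AP4 with the same counts, were low in 10 mM glucose replicate 3, at 11.8 CPM against 13.2 to 13.4 CPM. HIST1H1C was high in 10 mM glucose replicate 4, at 4.11 CPM against 3.67 to 3.72 CPM. HIST1H2BC was low in 10 mM glucose replicate 4, at 0.218 CPM against 0.690 to 0.774 CPM. With acetate HIST1H2AC was low in replicate 4, at 0.605 CPM against 0.946 to 0.992 CPM, and HIST1H2BJ was high in replicate 3, at 0.265 CPM against 0.185 to 0.191 CPM.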

How the results depend on the processing

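At 10 against 1 mM glucose the median log2 fold changes of replication-dependent and variant genes were both 0.45 with library totals. They were 0.52 and 0.49 with length and GC trends removed (with or without the block). With only the 8 libraries compared the replication-dependent one was 0.20, and 0 variant genes were lower. The replication-dependent medians here and below include genes that passed the filter only with the 10 mM glucose libraries, 6 of 18 in the main fit. Over the 12 that passed without those libraries the main median was -0.10 at 10 against 1 mM glucose. It is not given for the alternatives. Library totals raised the share of calls that were higher to 63.3% against 49.9% with TMM, to 65.2% against 48.4% with acetate, and to 60.8% against 49.4% for 10 mM glucose against acetate. A mean of at least 5 CPM left no replication-dependent gene, so its calls were 0 and its medians could not be given, and 0 variant genes were lower. With acetate, 1 replication-dependent gene was higher with no filter (HIST4H4, 17 counts) and 1 variant gene was lower without the pair of libraries that stood apart. The genes called with acetate then numbered 1056 with only the 8 libraries, 3728 without the pair, 3810 with trends removed and 3402 with the block as well, against 1980. For 10 mM glucose against acetate, 1 replication-dependent gene was lower with library totals and with trends removed (with or without the block), and 1 variant gene was lower without the pair. The variant median there was 0.48 with library totals, 0.51 with trends removed and 0.52 with the block as well, and the replication-dependent median 0.86 with trends removed, with or without the block. Causes were not tested.

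Leaving out 1 library at a time gave 2 to 8 replication-dependent genes higher at 10 than at 1 mM glucose (2 without 10 mM glucose replicate 1) with medians of 0.17 to 0.35. With acetate it gave 1196 to 2956 genes called, 0 to 1 lower variant genes and 2 to 3 lower replication-dependent genes, with medians of -0.48 to -0.24. The genes called with acetate numbered 1294 and 1278 without 1 mM glucose replicates 1 and 4, and 1318 and 1196 without acetate replicates 3 and 4. For 10 mM glucose against acetate it gave 1 to 2 lower replication-dependent genes (1 without acetate replicate 2 or 3 or 10 mM glucose replicate 2 or 4) and 0 to 1 lower variant genes, with replication-dependent medians of 0.55 to 0.80.

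Correlations of same-numbered libraries were between -0.365 and 0.27. Between 10 and 1 mM glucose all 4 matched their own number best, with correlations of 0.0645 to 0.27. Between acetate and either other condition none did. Whether the replicate number pairs the libraries is therefore not settled, and the main fit did not use it. With the replicate block 9613 genes were called at 10 against 1 mM glucose, where 4 replication-dependent and 8 variant genes were higher, 1780 with acetate and 8899 for 10 mM glucose against acetate.

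Signs turned only in log2 fold changes that were not called. HIST1H2BK at 10 against 1 mM glucose was 0.06 with trends removed, with or without the block, and HIST1H3D was -0.01 to 0.29 with 1 library left out. In the same comparison H2AFJ was 0.12 with library totals and 0.17 with trends removed, with or without the block. H3F3C was 0.08 with library totals, 0.09 in limma-voom, 0.34 without the pair, and 0.16 and 0.18 with trends removed, without and with the block. HIST1H2BG was 0.07 with library totals and 0.09 with trends removed, with or without the block, and HIST1H4H 0.01 with library totals and 0.13 and 0.12 with trends removed, without and with the block. With 1 library left out they were -0.09 to 0.04 for H2AFJ, -0.28 to 0.34 for H3F3C and -0.17 to 0.06 for HIST1H2BG. For 10 mM glucose against acetate H2AFJ was -0.04 to 0.21 with 1 library left out, and H3F3C was called with only the 8 libraries (adjusted p = 0.049). NPAT at 10 mM glucose against acetate was 0.06 with library totals and -0.14 to 0.02 with 1 library left out. With acetate, CCNA2 was -0.00047 in edgeR with RLE size factors, -0.0005 in DESeq2, and -0.02 and -0.01 with trends removed, without and with the block. H2AFY was 0.02 with library totals, 0.03 without the pair and 0.01 with trends removed. HJURP was 0.02 with library totals and 0.01 without the pair, HIST1H1E 0.08 and H1FX 0.00018 without the pair, HIST1H1C 0.01 with trends removed, and HIST1H2BJ 0.41 in limma-voom. With 1 library left out the values with acetate were -0.04 to 0.03 for CCNA2, -0.05 to 0.05 for H2AFY, -0.06 to 0.02 for HJURP, -0.32 to 0.12 for HIST1H1E, -0.21 to 0.05 for H1FX, -0.13 to 0.01 for HIST1H1C, -0.68 to 0.25 for HIST1H2BJ, -0.22 to 0.02 for HIST2H2BF, -0.11 to 0.06 for H3F3A, -0.01 to 0.13 for H2AFZ, -0.01 to 0.21 for ASF1B, -0.23 to 0.02 for H2AFJ and -0.31 to 0.11 for HIST2H2AC. Most of the replication-dependent class was under the count filter, and the cause of its low counts was not tested.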
